A study of Mus musculus with 6 samples.

Results

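A set of 10 genes that encode enzymes of triglyceride and phospholipid synthesis was followed in the livers of mice with and without knockdown of the long non-coding RNA Hnf1aos1. The genes, Gpam, Agpat2, Lpin1, Lpin2, Dgat1, Dgat2, Mogat1, Pcyt1a, Chka and Lpcat3, were taken by symbol from the 40803 genes of the raw count table. Of these, 9 passed the filter on low counts, as did 16327 genes in all. Mogat1 did not pass.

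The study sequenced liver RNA from 6 male C57BL6 mice fed normally, which the methods name as C57BL/6J and about 6 weeks old at injection, to learn what lowering Hnf1aos1 does to the hepatic transcriptome. The 3 mice labelled rAAV8-Scramble received an adeno-associated virus with the liver-targeting capsid AAV8 that carried a scrambled short hairpin RNA. The 3 mice labelled rAAV8-Hnf1aos1 received the same type of virus with a hairpin against Hnf1aos1. Each mouse was given 100 µL into the tail vein and its liver was taken 4 weeks later, and each mouse gave 1 library. The hairpin against Hnf1aos1 was transcribed from a U6 promoter, which is not restricted to hepatocytes, and its vector carried a green fluorescent reporter. The study imaged reporter fluorescence in mice of both virus groups. The promoter of the scrambled hairpin is not given in the sources used here. A single hairpin sequence was used, and no uninjected mice are among the 6. The labels describe ribosomal RNA depletion and the build GRCm39, whereas the methods describe a stranded poly(A) kit and GRCm38.

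Glycerolipids are built on glycerol 3-phosphate. An acyltransferase such as GPAM adds the first fatty acid, AGPAT enzymes add the next and form phosphatidic acid, and the lipins remove its phosphate to give diacylglycerol, which DGAT enzymes acylate to triglyceride. Diacylglycerol is also the acceptor for phosphocholine in the Kennedy pathway, in which choline kinase and the CTP-dependent enzyme CCT prepare the head group of phosphatidylcholine, and LPCAT3 then reworks the fatty acids of that phospholipid. In the liver, these routes feed lipid droplets, membranes and very low density lipoprotein.

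Among the 9 enzymes tested, Lpin2 was lower in the knockdown livers and the other 8 did not pass the test, the quasi-likelihood test of edgeR, with p-values adjusted by Benjamini-Hochberg across the 16327 genes and a call under 0.05. That is 1 of 9 called, beside 6.32% of all genes called in either direction (3.09% called higher and 3.23% called lower). The log2 fold change of rAAV8-Hnf1aos1 over rAAV8-Scramble was below 0 for 8 of the 9 and above 0 for Dgat2, with a median of -0.12, whereas 8172 of all 16327 genes were below 0 and their median was -0.0004. The libraries of the groups did not overlap for 3 of the 9 (Lpin2, Gpam and Chka, each lower), beside 28.9% of all genes in either direction and 13.7% lower. An unadjusted p under 0.05 was reached by the same 3, beside 23.4% of all genes. With 9 genes, these shares are a description. In whole liver, a lower share of RNA from hepatocytes and less of a transcript per cell cannot be told apart.

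**Figure D1:**
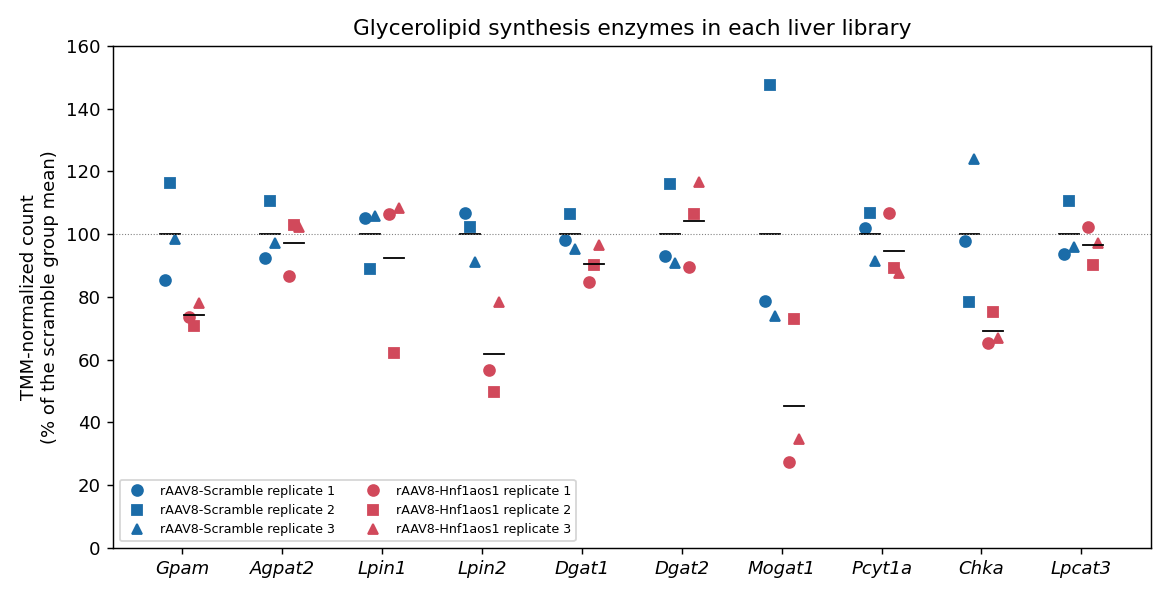
TMM-normalized count of each of the 10 enzymes in each library, as a percentage of the rAAV8-Scramble mean of that gene (vertical axis, linear from 0). Circles, squares and triangles are replicates 1, 2 and 3, blue is rAAV8-Scramble, red is rAAV8-Hnf1aos1, and short black lines are group means of 3 libraries. The red points lie below every blue point for Gpam, Lpin2, Chka and Mogat1, and the knockdown mean of Lpin2 lies lowest of the 9 enzymes tested; Mogat1 rests on at most 14 counts in a library.

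Expression values below are counts scaled with edgeR's TMM factors to a common library size (normalized counts), and levels between genes are compared in the authors' TPM values, transcript abundances per library that correct for transcript length. Total gene counts ran from 14704746 to 19462398 per library and were higher in all 3 knockdown libraries, while the synthetic ERCC spike-ins took 1.38 to 1.52% of counts in rAAV8-Scramble and 1.18 to 1.24% in rAAV8-Hnf1aos1. The target Hnf1aos1 had 512, 491 and 620.3 normalized counts in rAAV8-Scramble and 278, 258 and 433 in rAAV8-Hnf1aos1, with no overlap (log2 fold change -0.74, SE 0.20, edgeR adjusted p = 0.0625), and the library nearest to the scramble group was knockdown replicate 3. Over all genes tested, that library also lay closer to the scramble mean, at a root mean square distance of 0.482 on the log2 scale, than replicates 1 and 2 at 0.602 and 0.585. All 10 hepatocyte markers were detected, with a summed level of 80946 to 86215 TPM in rAAV8-Scramble and 75759 to 91130 TPM in rAAV8-Hnf1aos1. Most of that sum was Alb, at 51092 to 62146 TPM over the libraries. Tat, a tyrosine-degrading enzyme, was the 1 of the 10 called (6.32% over all genes), and it fell (log2 fold change -0.72, edgeR adjusted p = 0.00766). Apoa1, Apob, Serpina1a and Cps1 were higher without overlap and not called, with log2 fold changes of 0.41, 0.34, 0.24 and 0.19. For the remaining hepatocyte markers the groups overlapped.

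Markers of other liver and neighbouring cell types were read in the same way. The 8 macrophage markers summed to 143 to 177 TPM in rAAV8-Scramble and 177 to 229 TPM in rAAV8-Hnf1aos1. Each of the 8 had a log2 fold change above 0, from 0.18 (Csf1r) to 1.41 (Marco). Csf1r was the only one whose groups overlapped, and 2 of the 8, Adgre1 and Clec4f, were called higher. Over all genes, 28.9% did not overlap and 3.09% were called higher. The 5 cholangiocyte markers were the only list whose sums did not overlap, at 32.7 to 38.9 TPM and 46.8 to 183 TPM. Most of that sum was Spp1, a secreted phosphoprotein. It stood at 24.8, 21.7 and 23.8 TPM in the scramble libraries and 167, 31.0 and 37.6 TPM in the knockdown libraries. Its log2 fold change of 1.79 did not pass (SE 0.79, edgeR adjusted p = 0.274), and knockdown replicate 1 lay far above the other libraries. Of the 4 cholangiocyte markers tested, 0 were called. Epcam and Sox9 had log2 fold changes of 0.35 and 0.27, and the keratin Krt19 had -1.03, each with overlap. Krt19 did not exceed 2.80 TPM in any library, and Krt7 was too low to be tested. The sums of the 7 adipocyte markers were 10.9 to 18.2 and 7.26 to 11.9 TPM, with 1 of the 3 tested called lower (3.23% over all genes). Those of the 9 skeletal muscle markers were 75.5 to 261 and 30.9 to 86.8 TPM. Each of these 9 had a log2 fold change below 0, from -0.47 (Myh1) to -1.68 (Pvalb), and 0 were called. Of the muscle markers, only Tnnt3, Pvalb and Atp2a1 had groups without overlap. The sums were 113 to 118 and 98.6 to 114 TPM for the 6 endothelial markers, and 161 to 214 and 134 to 176 TPM for the 7 stellate cell markers. For the 8 lymphoid and neutrophil markers they were 7.13 to 9.21 and 8.72 to 12.2 TPM. Among these, Ly6g was at 0 in all 6 libraries. S100a8 had 1, 1 and 2 raw counts in rAAV8-Scramble and 7, 11 and 4 in rAAV8-Hnf1aos1, and S100a9 had 2, 1 and 0 against 12, 9 and 6. Both were too low to be tested, and no other marker of this list separated the groups. The part of these markers in the enzyme results was not tested.

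In order of level, the enzymes spanned a wide range. In rAAV8-Scramble, Dgat2 was highest at 290 ± 34.6 TPM (SD, n = 3), followed by Agpat2 at 207 ± 17.6, Gpam at 152 ± 22.5 and Lpcat3 at 85.2 ± 6.57 TPM, and none of these 4 overlapped the next. Chka at 48.9 ± 12.6, Pcyt1a at 47.3 ± 2.36 and Lpin2 at 45.2 ± 2.60 TPM could not be ordered, since each overlapped its neighbour. Lpin1 at 34.0 ± 3.97, Dgat1 at 13.7 ± 0.521 and Mogat1 at 0.537 ± 0.210 TPM were each below the one before without overlap. In rAAV8-Hnf1aos1 the first 4 places and the last 2 were the same, but Pcyt1a came next after the first 4, at 42.6 ± 6.26 TPM, and Chka at 31.8 ± 1.82, Lpin1 at 29.8 ± 8.92 and Lpin2 at 26.4 ± 6.18 TPM overlapped in turn.

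**Figure D2:**
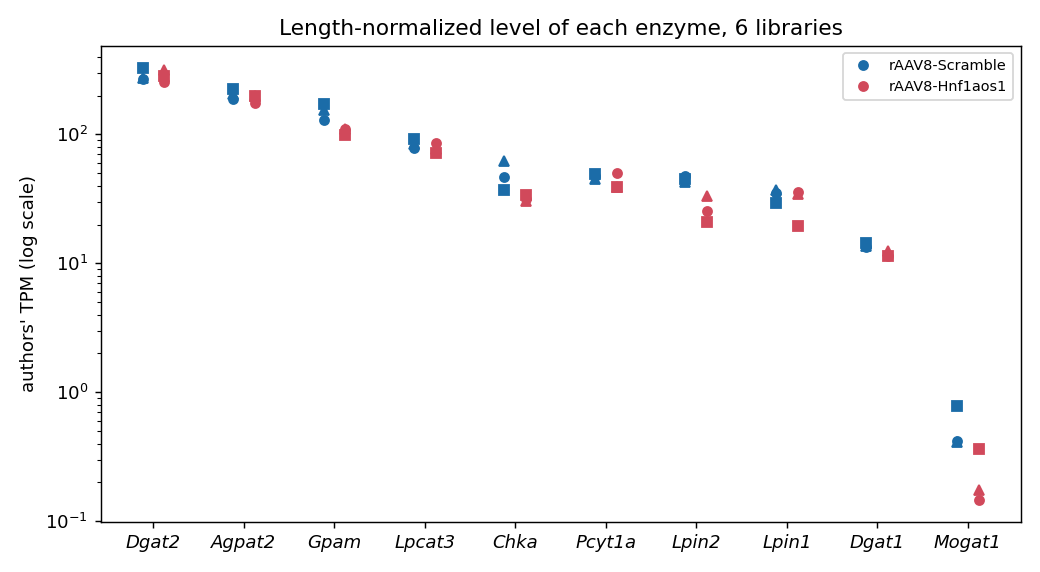
Level of each enzyme in the 6 libraries in the authors' TPM on a log axis, with genes ordered by their rAAV8-Scramble mean; circles, squares and triangles are replicates 1, 2 and 3. Dgat2, Agpat2 and Gpam hold the top of the order in both groups, Lpin2 moves from 45.2 to 26.4 TPM on average, and Mogat1 lies under 1 TPM in every library.

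The pathway begins with glycerol-3-phosphate acyltransferase. Gpam, a mitochondrial isoform, made up 78.2 to 80.9% of the TPM of the 4 acyltransferase genes of this step in rAAV8-Scramble and 76.4 to 79.2% in rAAV8-Hnf1aos1. Gpam (chromosome 19, 55067635 to 55127319, minus strand, GRCm38.p6) had 6911, 9417 and 7991 normalized counts in scramble replicates 1, 2 and 3 and 5951, 5735 and 6332 in knockdown replicates 1, 2 and 3. The groups did not overlap, with the knockdown libraries lower, and the scramble libraries were the more spread. The means were 8106 ± 1257 and 6006 ± 302 (SD, n = 3), and the log2 fold change of -0.43 (SE 0.12, 95% confidence interval -0.69 to -0.17) did not pass at an edgeR adjusted p of 0.0552. It passed in 4 of 8 alternative fits (adjusted p from 0.00216 to 0.243 over the 8), and without scramble replicate 1 (-0.53, adjusted p = 0.0398) or knockdown replicate 3 (-0.47, adjusted p = 0.0372). Within libraries, Gpam stood at 4.46, 4.19 and 5.07 times Gpat4, an isoform of the endoplasmic reticulum, in the scramble group and at 4.43, 3.94 and 3.59 times in the knockdown group (TPM ratios). These ratios overlapped, and their difference on the log2 scale was -0.20 (two-sided exact permutation p = 0.2, adjusted p = 0.333 over 5 ratios, where 3 against 3 cannot go below 0.1), and it was -0.12 without scramble replicate 3 and -0.13 without knockdown replicate 3.

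For the tested enzymes whose groups separated, 300-base windows around annotated starts (250 bases before and 50 after) are shown from RefSeq on GRCm38.p6. A reader may wish to see what lies upstream of them. The window of Mogat1, which was not tested, is not printed. Windows were at hand for 8 of the 10 enzymes, 13 windows in all, and not for Dgat1 and Dgat2. Capitals mark 4 motifs searched on both strands: the E-box CACGTG, the GC box GGGCGG or CCGCCC, the CCAAT box CCAAT or ATTGG, and a half-site of the hepatocyte nuclear factor HNF1, GTTAAT or ATTAAC. Hits of the GC box can overlap each other. Among all 32851 windows of this length, 7.15% held the E-box, 35.7% the GC box, 37.4% the CCAAT box and 7.10% the half-site. Gpam has a pair of windows. The inner one, chr19:55099428-55099727, minus strand, held 1 GC box and no CCAAT box, and is not printed. The window of the outer start, chr19:55127189-55127488, minus strand, held 1 CCAAT box on the opposite strand:
Gpam: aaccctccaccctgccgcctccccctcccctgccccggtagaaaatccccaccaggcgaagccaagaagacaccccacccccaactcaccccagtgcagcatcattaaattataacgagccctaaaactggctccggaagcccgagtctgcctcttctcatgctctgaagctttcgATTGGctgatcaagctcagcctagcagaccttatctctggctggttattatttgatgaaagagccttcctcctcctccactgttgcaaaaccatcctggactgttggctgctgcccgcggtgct

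AGPAT2 adds the fatty acid in the middle position and is the acyltransferase lost in a form of congenital lipodystrophy. Agpat2 (chromosome 2, 26593057 to 26604417, minus strand) had 2305, 2765 and 2423 normalized counts in rAAV8-Scramble and 2164, 2572 and 2552 in rAAV8-Hnf1aos1. The groups overlapped almost wholly. The log2 fold change was -0.04 with a 95% confidence interval of -0.27 to 0.19 (edgeR adjusted p = 0.858), and it was 0.16 with library sizes from the spike-ins, which raise all genes alike. Agpat2 supplied 77.8 to 78.3% of the TPM of the 5 AGPAT genes in rAAV8-Scramble and 77.2 to 79.9% in rAAV8-Hnf1aos1.

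The lipins are phosphatidate phosphatases, and LPIN2 is one of the forms present in liver, while LPIN1 is best known from fat and muscle and is induced by fasting in liver. Lpin2 (chromosome 17, 71183532 to 71249818, plus strand, GRCm38.p6) had 8287, 7941 and 7072 normalized counts in scramble replicates 1, 2 and 3 and 4408, 3867 and 6082 in knockdown replicates 1, 2 and 3. All 3 knockdown libraries lay below the lowest scramble library, with knockdown replicate 3 between the other knockdown libraries and the scramble group. The mean fell from 7767 ± 626 to 4785 ± 1155 (SD, n = 3), a log2 fold change of -0.70 (SE 0.16, 95% confidence interval -1.04 to -0.35, edgeR adjusted p = 0.0308), which leaves 61.6% of the scramble level. The call held in 6 of 8 alternative fits, DESeq2 and limma voom among them, and was lost with spike-in library sizes (-0.49, adjusted p = 0.0529) and with the replicate number as a block (-0.72, adjusted p = 0.0512), with adjusted p-values from 4.00e-05 to 0.0529 over the 8.

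The call of Lpin2 also depended on single libraries. Without scramble replicate 1, 2 or 3 the log2 fold change was -0.65, -0.69 and -0.77 with edgeR adjusted p = 0.0831, 0.0933 and 0.102. Without knockdown replicate 1 or 2 it was -0.65 and -0.56, with edgeR adjusted p = 0.103 and 0.0873. Without knockdown replicate 3, the library with the most Hnf1aos1 and the most Lpin2 of its group, it was -0.91 with edgeR adjusted p = 0.0003. The direction was thus the same in each of these 6 fits, and the threshold was passed in 1 of them.

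The window at the first annotated start of Lpin2, chr17:71183282-71183581, plus strand, is shown because this is the enzyme that passed the test. It held an E-box just upstream of the start and a GC box on either side of it, and it was the 1 window among the 13 with that E-box:
Lpin2: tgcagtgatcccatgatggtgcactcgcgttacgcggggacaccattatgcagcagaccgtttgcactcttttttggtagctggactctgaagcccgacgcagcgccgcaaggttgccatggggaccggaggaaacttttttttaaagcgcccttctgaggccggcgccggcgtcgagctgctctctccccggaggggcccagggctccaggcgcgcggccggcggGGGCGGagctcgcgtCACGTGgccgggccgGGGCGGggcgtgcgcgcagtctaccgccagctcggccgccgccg

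Lpin2 has further RefSeq starts inside the gene. The window of the next one, chr17:71183728-71184027, plus strand, held 1 GC box and is not printed. The window of the last one, at chr17:71204404-71204703, plus strand, is shown for contrast with the first. It held 3 CCAAT boxes and 1 HNF1 half-site, all on the opposite strand, and no GC box. The half-site was found in 1 other window of these enzymes, that of Mogat1. Gene-level counts do not say from which start the transcripts came:
Lpin2, inner start: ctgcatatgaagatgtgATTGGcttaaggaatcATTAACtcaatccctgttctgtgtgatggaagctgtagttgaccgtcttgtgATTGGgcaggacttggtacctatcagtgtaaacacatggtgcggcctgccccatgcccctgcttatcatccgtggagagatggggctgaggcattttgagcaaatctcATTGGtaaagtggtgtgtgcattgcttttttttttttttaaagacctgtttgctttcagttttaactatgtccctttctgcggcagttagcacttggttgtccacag

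Lpin1 (chromosome 12, 16535669 to 16653903, minus strand) had 2048, 1731 and 2062 normalized counts in rAAV8-Scramble and 2073, 1210 and 2109 in rAAV8-Hnf1aos1. Knockdown replicate 2 was low and the other knockdown libraries lay with the scramble libraries. Its fold change on the log2 scale was -0.12, with a wide 95% confidence interval of -0.61 to 0.38 (edgeR adjusted p = 0.790), and it turned to 0.11 without knockdown replicate 2. Within the knockdown group, Lpin1 and Lpin2 varied most among the 9 enzymes tested, with coefficients of variation of 28.3% and 24.1%, beside 9.62% and 8.06% in the scramble group.

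The lipins were also set against each other within each library. Lpin1 stood at 0.739, 0.652 and 0.872 times Lpin2 in the scramble libraries and at 1.41, 0.936 and 1.04 times in the knockdown libraries (TPM ratios, which do not depend on the scaling between libraries). The ratio was higher in all 3 knockdown libraries, by 0.57 on the log2 scale (two-sided exact permutation p = 0.1, the smallest that 3 against 3 allows, adjusted p = 0.333 over 5 ratios). Lpin2 made up 51.2 to 57.9% of the TPM of the 3 lipin genes in rAAV8-Scramble and 38.8 to 47.1% in rAAV8-Hnf1aos1. The lipin total was 85.7, 78.1 and 83.0 TPM in rAAV8-Scramble and 65.1, 44.5 and 70.1 TPM in rAAV8-Hnf1aos1, so the 2 groups did not overlap (82.3 ± 3.85 and 59.9 ± 13.6 TPM, SD, n = 3). This was not particular to the lipins. Totals of the glycerol-3-phosphate acyltransferase genes (191 ± 30.4 and 138 ± 8.02 TPM) and of the choline kinases (50.3 ± 12.4 and 32.9 ± 2.02 TPM) did not overlap either. The AGPAT, DGAT, CCT and LPCAT totals overlapped. Lpin3, the remaining lipin, was low in both groups at a mean of 3.43 TPM over the 6 libraries, with a log2 fold change of 0.31 (edgeR adjusted p = 0.363).

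**Figure D3:**
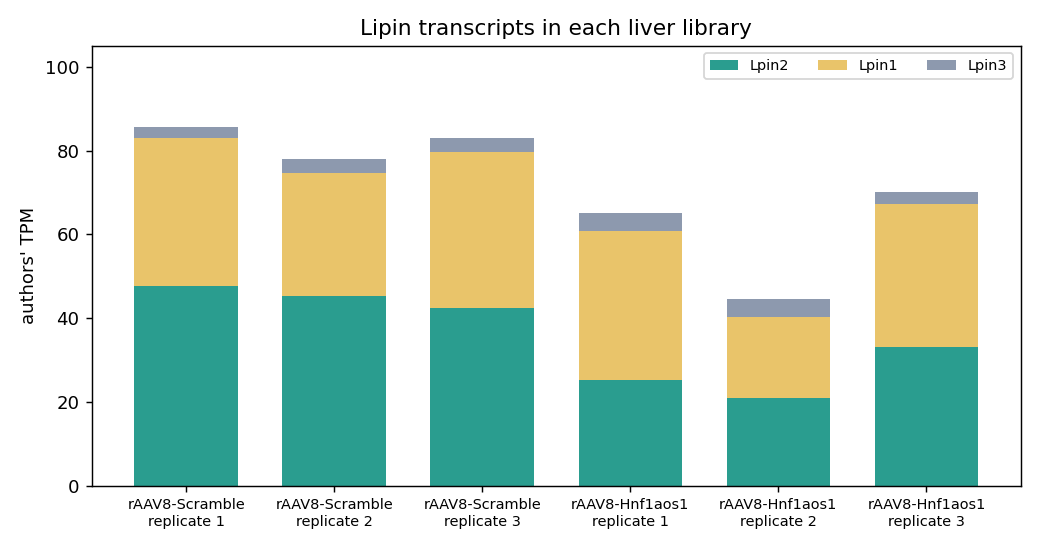
TPM of Lpin2 (green, bottom), Lpin1 (yellow) and Lpin3 (grey, top) stacked for each library; the axis starts at 0. The green part is shorter in all 3 rAAV8-Hnf1aos1 libraries (20.9 to 33.1 TPM) than in the rAAV8-Scramble libraries (42.5 to 47.7 TPM), and the yellow part is short in knockdown replicate 2 alone (19.5 TPM).

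The last step to triglyceride is carried out by DGAT2 and DGAT1, which are unrelated in sequence although they catalyse the same reaction. Dgat2 (chromosome 7, 99153663 to 99182713, minus strand) had 4669, 5819 and 4551 normalized counts in rAAV8-Scramble and 4483, 5328 and 5853 in rAAV8-Hnf1aos1. The highest and the lowest library were both in the knockdown group. Its log2 fold change of 0.06 had a 95% confidence interval of -0.22 to 0.34 (edgeR adjusted p = 0.824) and was -0.01 when libraries were scaled by their totals alone.

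Dgat1 (chromosome 15, 76502012 to 76512021, minus strand) had 276, 299.7 and 268 normalized counts in rAAV8-Scramble and 238, 254 and 272 in rAAV8-Hnf1aos1. Knockdown replicate 3 lay above the lowest scramble library and the other knockdown libraries lay below it. Dgat1 had a log2 fold change of -0.14 with a 95% confidence interval of -0.39 to 0.10 (edgeR adjusted p = 0.465), and it was 0.06 with spike-in library sizes. Dgat2 made up 95.2 to 95.8% of the TPM of both genes in rAAV8-Scramble and 95.7 to 96.2% in rAAV8-Hnf1aos1, and the log2 ratio of Dgat2 to Dgat1 was 0.20 higher in the knockdown group, with overlap (two-sided exact permutation p = 0.2).

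Mogat1 encodes a monoacylglycerol acyltransferase, a way to diacylglycerol that bypasses phosphatidic acid and is best known from fatty liver and intestine. Mogat1 (chromosome 1, 78511060 to 78606964, plus strand) had 8, 14 and 7 raw counts in rAAV8-Scramble and 3, 8 and 4 in rAAV8-Hnf1aos1. Scaled to a common library size, these were 8.21, 15.4 and 7.70 against 2.86, 7.60 and 3.62 normalized counts. The knockdown libraries lay below the scramble libraries on that scale, by less than 1 count at the nearest pair, while the raw counts overlapped. The lowest library was at the floor of 3 counts, and a difference was not detectable at this depth. Without the filter on low counts, its log2 fold change was -1.13 (SE 0.60, edgeR adjusted p = 0.322).

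Choline kinase alpha, the product of Chka, catalyses the entry step of the Kennedy pathway. Chka (chromosome 19, 3851585 to 3894369, plus strand) had 3587, 2881 and 4550 normalized counts in scramble replicates 1, 2 and 3 and 2399, 2758 and 2450 in knockdown replicates 1, 2 and 3. The knockdown libraries lay close together below the scramble libraries, but scramble replicate 2 was only slightly above the highest of them. The means were 3673 ± 838 and 2536 ± 194 (SD, n = 3), and the log2 fold change of -0.53 (SE 0.15, 95% confidence interval -0.87 to -0.20) did not pass at an edgeR adjusted p of 0.0650. It passed in 2 of 8 alternative fits, with DESeq2 (adjusted p = 0.00914) and without the filter on low counts (adjusted p = 0.000538) while the highest adjusted p of the 8 was 0.116, and without scramble replicate 2 (-0.69, adjusted p = 0.0257). Without scramble replicate 3 it was -0.36 (adjusted p = 0.213).

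Chka was nearly the whole of the choline kinase signal, at 95.5 to 97.8% of the TPM of Chka and Chkb in rAAV8-Scramble and 96.3 to 97.2% in rAAV8-Hnf1aos1. The log2 ratio of the 2 kinases differed by -0.15 between the groups (two-sided exact permutation p = 0.7), and Chkb itself had under 30 normalized counts in each library. The window of Chka at chr19:3851523-3851822, plus strand, is shown because the groups also separated for this enzyme. It held 3 GC boxes, a pair of them overlapping beside the start, and 2 CCAAT boxes:
Chka: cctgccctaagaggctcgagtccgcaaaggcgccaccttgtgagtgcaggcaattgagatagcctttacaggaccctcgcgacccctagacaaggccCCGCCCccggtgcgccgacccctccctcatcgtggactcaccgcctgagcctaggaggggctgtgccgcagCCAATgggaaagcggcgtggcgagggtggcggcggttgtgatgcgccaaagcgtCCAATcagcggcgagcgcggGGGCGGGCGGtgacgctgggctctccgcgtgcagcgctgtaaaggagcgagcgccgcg

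CCT alpha, encoded by Pcyt1a, is the rate-limiting enzyme of the Kennedy pathway. Pcyt1a (chromosome 16, 32430921 to 32475065, plus strand) had 1923, 2015 and 1729 normalized counts in rAAV8-Scramble and 2015, 1683 and 1657 in rAAV8-Hnf1aos1. Knockdown replicate 1 lay level with the highest scramble library while the other knockdown libraries were the lowest of the 6. For Pcyt1a, the log2 fold change was -0.08 with a 95% confidence interval of -0.31 to 0.15 (edgeR adjusted p = 0.679), and it was 0.12 with spike-in library sizes. Pcyt1a made up at least 99.6% of the TPM of both CCT genes in every library. Its log2 ratio to Pemt, the methyltransferase that makes phosphatidylcholine from phosphatidylethanolamine, differed by 0.17 (two-sided exact permutation p = 0.4), and by 0.018 without knockdown replicate 1 and 0.29 without knockdown replicate 3.

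LPCAT3 places polyunsaturated fatty acids into lysophosphatidylcholine and is a target of the liver X receptors. Lpcat3 (chromosome 6, 124663094 to 124704716, plus strand) had 1350, 1590 and 1381 normalized counts in rAAV8-Scramble and 1473, 1300 and 1400 in rAAV8-Hnf1aos1. The groups were interleaved. The log2 fold change was -0.05 with a 95% confidence interval of -0.26 to 0.16 (edgeR adjusted p = 0.797), and it was 0.15 with spike-in library sizes. Lpcat3 made up 94.2 to 95.7% of the TPM of the 4 LPCAT genes in rAAV8-Scramble and 93.3 to 95.5% in rAAV8-Hnf1aos1.

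With library sizes from the spike-ins, the median over all genes tested moved to 0.20 on the log2 scale, and 3030 genes were called higher and 364 lower in place of 505 and 527. That scaling adds nearly the same amount to every gene, so the small negative values given above turn positive with it. Lpin2 was then at -0.49, Chka at -0.33 and Gpam at -0.24, none of them past the threshold.

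**Figure D4:**
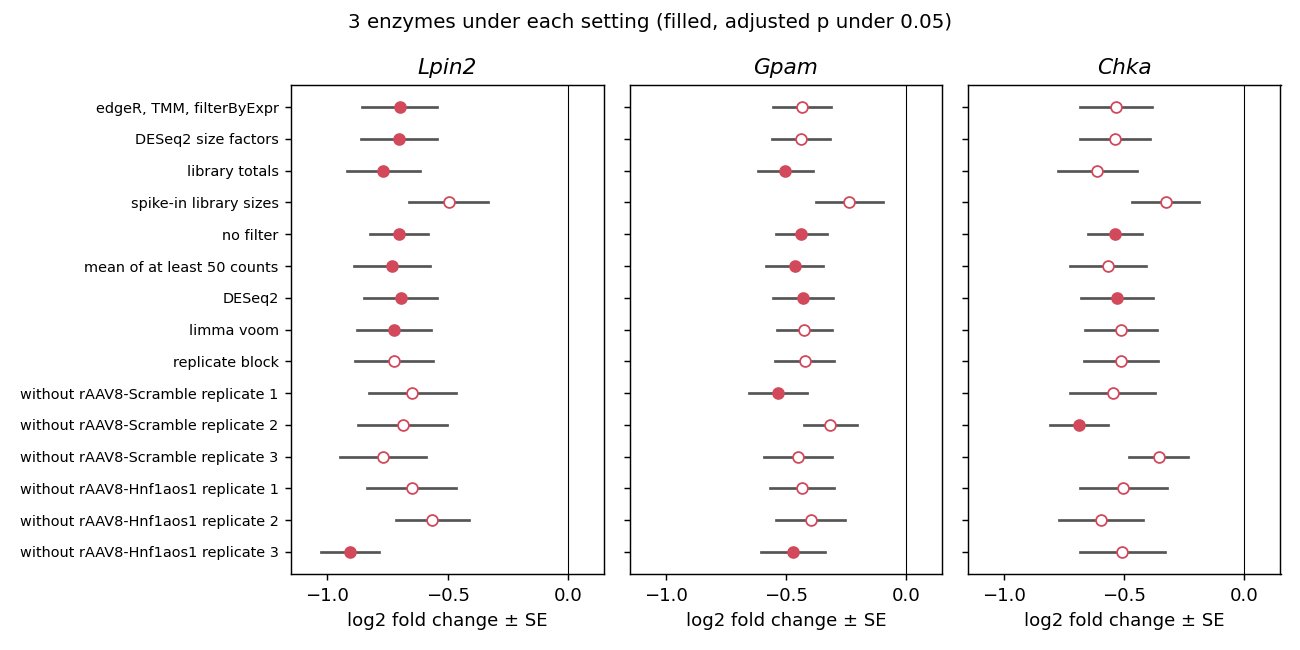
Log2 fold change of Lpin2, Gpam and Chka (points) with its SE (lines) under the reported fit (top), 8 other fits and the 6 fits that leave out 1 library; filled points have an adjusted p under 0.05. All points of the 3 enzymes lie left of 0, and Lpin2 is filled under 6 of the 8 other fits but in only 1 of the 6 with a library left out.

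The other genes of glycerolipid synthesis were read from 4 lists with 42 genes, of which 40 were tested, Mogat2 and Pcyt1b being too low. edgeR called 0 of the 40, and 8 had an unadjusted p under 0.05. DESeq2 called 0 with 6 at an unadjusted p under 0.05, and limma voom 0 with 5. Over all genes tested, edgeR called 6.32%, and 23.4% had an unadjusted p under 0.05. DESeq2 called 1227 of 27496 genes with a p-value (3291 at an unadjusted p under 0.05), and limma voom 848 of 16327 (3759). The log2 fold change was below 0 for 28 and above 0 for 12, with a median of -0.08, and the groups did not overlap for 7 of the 40 (17.5%), beside the 28.9% over all genes. With spike-in library sizes, 3 of the 40 passed, each higher (Pisd, Etnk1 and Plpp2), beside 3394 of all 16327 genes, 3030 of them higher. Without knockdown replicate 3 there were 3 that passed, each higher (Lpgat1, Etnk1 and Plpp2), beside 1881 of all 16762 genes, 1015 of them higher.

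In the triglyceride route outside the 10 enzymes, 0 of 14 tested genes were called by edgeR and 0 had an unadjusted p under 0.05. Over all genes these shares were 6.32% and 23.4%. The median log2 fold change of the route was -0.15. Its most abundant genes were Gpd1, which makes glycerol 3-phosphate from a glycolytic intermediate, with a log2 fold change of -0.14 (SE 0.11, edgeR adjusted p = 0.453), and Plpp3, a lipid phosphatase of the cell surface, with -0.18 (SE 0.11, edgeR adjusted p = 0.370). The groups overlapped for both genes.

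In the choline and ethanolamine routes, 0 of 11 tested genes were called by edgeR, 5 had an unadjusted p under 0.05, and the median was -0.13. Over all genes, 6.32% were called and 23.4% had an unadjusted p under 0.05. The groups did not overlap for the same 5 of the 11 (45.5%), beside 28.9% of all genes. With 11 genes, these shares are a description. Pemt had 2694, 3059 and 2726 normalized counts in rAAV8-Scramble and 2169, 2348 and 2596 in rAAV8-Hnf1aos1. Its knockdown libraries lay just below the scramble libraries (log2 fold change -0.25, SE 0.10, edgeR adjusted p = 0.149). Pcyt2, the counterpart of CCT in the ethanolamine branch, likewise had a log2 fold change of -0.23 (SE 0.10, edgeR adjusted p = 0.168) without overlap. The other 3 genes with an unadjusted p under 0.05 were named after their values were seen. They were Chpt1, which joins diacylglycerol and CDP-choline, at -0.27, the ethanolamine kinase Etnk1 at 0.29 and Pisd, which makes phosphatidylethanolamine from phosphatidylserine in mitochondria, at 0.33 (edgeR adjusted p = 0.148, 0.128 and 0.11).

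In the CDP-diacylglycerol route to phosphatidylinositol and cardiolipin, 0 of 7 genes were called by edgeR and 1 had an unadjusted p under 0.05. The median log2 fold change was -0.01. Over all genes, 6.32% were called and 23.4% had an unadjusted p under 0.05. Cdipt, the phosphatidylinositol synthase, had a log2 fold change of -0.01 (SE 0.09, edgeR adjusted p = 0.972), and Crls1, the cardiolipin synthase, -0.20 (SE 0.09, edgeR adjusted p = 0.205). Among the other lysophospholipid acyltransferases, 0 of 8 were called by edgeR and 2 had an unadjusted p under 0.05, beside the same shares of all genes. The median here was -0.04. Those 2 were Mboat1 at 1.06 and Mboat2 at -0.81 (SE 0.46 and 0.37, edgeR adjusted p = 0.198 and 0.211), both with overlap and few counts. The most abundant of the list was Lpgat1. It had 3455, 4534 and 3661 normalized counts in rAAV8-Scramble and 5714, 5299 and 3724 in rAAV8-Hnf1aos1, where knockdown replicate 3 lay among the scramble libraries (log2 fold change 0.34, SE 0.17, edgeR adjusted p = 0.256). Lclat1, an acyltransferase of cardiolipin and phosphatidylinositol, had a log2 fold change of -0.04 (edgeR adjusted p = 0.832).

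**Figure D5:**
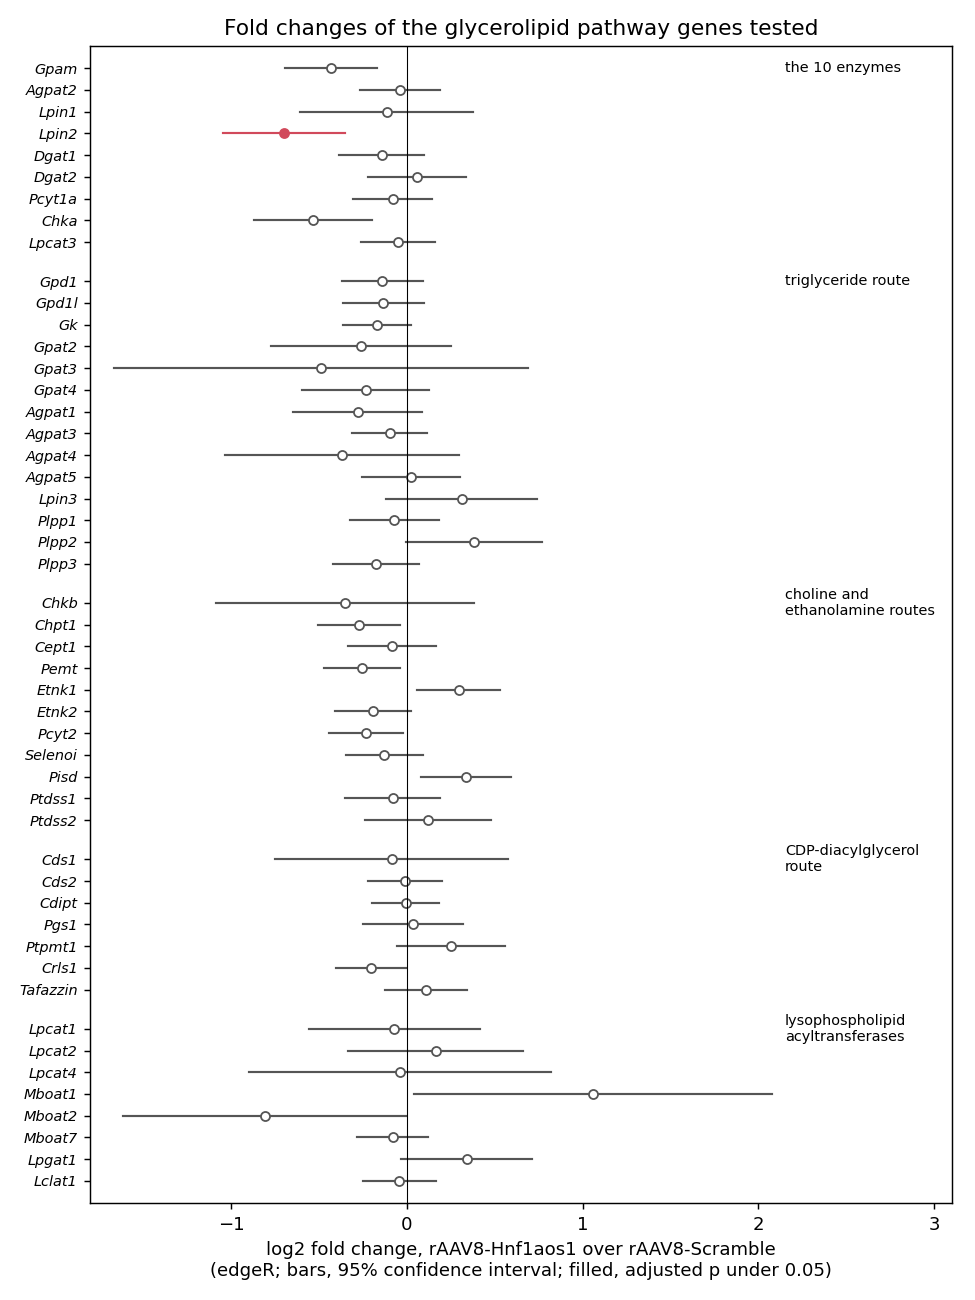
Log2 fold change of rAAV8-Hnf1aos1 over rAAV8-Scramble (horizontal axis) with 95% confidence intervals from edgeR for the 9 enzymes and the 40 other pathway genes tested, by list. The filled red point, Lpin2 at -0.70, is the 1 gene drawn that passed an adjusted p of 0.05, and the widest intervals are those of Gpat3 and Mboat1.

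The pattern of Lpin2 over the 6 libraries was most closely matched by Fmo2, a flavin-containing monooxygenase, and Naaladl2, with root mean square differences of 0.0684 and 0.102 on the log2 scale after each gene was set to its scramble mean. Their log2 fold changes were -0.68 and -0.75 (edgeR adjusted p = 0.0390 and 0.0233). Likeness over 6 libraries is a description, and these genes were picked for it.

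Reads could be shared with overlapping annotation, because the strand setting of the counting is not given in the sources used here. In GENCODE release M21, Gpam, Chka and Pcyt1a overlap antisense transcripts, Lpin2 overlaps a non-coding transcript on its own strand, and Agpat2, Mogat1, Pcyt1a and Lpcat3 overlap protein-coding genes of the opposite strand. Lpin1, Dgat1 and Dgat2 overlap no other gene.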

How the data were processed

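Liver RNA-seq of 3 rAAV8-Scramble and 3 rAAV8-Hnf1aos1 mice was analysed, with groups taken from the sample titles. According to the methods, the authors trimmed reads with Trimmomatic, used STAR to align them to GRCm38, and assigned uniquely mapped reads to exons with featureCounts. The submitters' processing notes name GRCm39. The authors deposited raw counts, which are whole numbers, and TPM, whose computation is not given in the sources used here. Their normalized counts and the fold changes and p-values of their own comparison were not used. The alignment and counting could not be varied, and how reads in overlapping genes were assigned is not given in the sources used here.

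The 92 ERCC rows, 1.32% of counts, entered neither library sizes nor tests. In R 4.3.3, edgeR 4.0.16 (TMM, filterByExpr, robust glmQLFit and glmQLFTest, group only, Benjamini-Hochberg adjustment over 16327 genes) compared the groups. Alternatives were DESeq2 1.42.0, limma 3.58.1 with voom, DESeq2 size factors, library totals or spike-ins for scaling, no filter, a mean of at least 50 counts, the replicate number as a block, and each library left out. Ratios within libraries were tested with exact two-sided permutation tests. Gene totals of 14704746 to 19462398 per library leave the spread between mice as the main uncertainty of all members but Mogat1 and Dgat1. Dgat1 had 244 to 300 raw counts per library, where counting noise also weighs. No library repeats another: the chi-square value per gene between libraries of a group was 7.68 to 31.6, where sampling alone gives about 1. The scripts were tested on simulated data. Positions are from RefSeq on GRCm38.p6; the deposited tables hold no coordinates. Figures were drawn with matplotlib 3.10.9.

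The members and lists were chosen with earlier results of these data known. Named genes were the 10 members, Hnf1aos1, pathway genes that were called, the 2 with the highest mean TPM in each pathway list, the 2 genes nearest in pattern to each called member among those with a mean log2 CPM of at least 1 (prior count 2), and markers of another cell type whose sums did not overlap. Other names were chosen after their values were seen.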

Additional observations from a re-analysis of the deposited data

How the results depend on the processing

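Of 126 values for the 9 tested members under 14 other fits, 98 kept their direction and their side of the threshold, 12 turned in sign, 7 lost the call (each Lpin2) and 9 gained it (Gpam or Chka). The number of members called was 2 of 9 with library totals, 0 of 9 with spike-in library sizes and 2 of 9 with a mean of at least 50 counts. It was 3 of 10 without a filter, 3 of 10 with DESeq2, and 0 to 2 of 9 with each library left out. Beside these, all genes called were 1048 of 16327 with library totals, 3394 of 16327 with spike-ins and 817 of 11781 with a mean of at least 50 counts. They were 1902 of 27496 without a filter, and 1227 with DESeq2 of 27496 genes with a p-value. DESeq2's own filter on low counts can leave some of those genes without an adjusted p, so its share is not like the others. With spike-ins the log2 fold changes turned to 0.16 (Agpat2), 0.090 (Lpin1), 0.057 (Dgat1), 0.12 (Pcyt1a) and 0.15 (Lpcat3), and with library totals Dgat2 turned to -0.012. With each library left out, log2 fold changes ran from -0.092 to 0.034 for Agpat2 (above 0 without scramble replicate 2 or knockdown replicate 1), from -0.10 to 0.022 for Lpcat3 (above 0 without scramble replicate 2), from -0.24 to 0.11 for Lpin1 (above 0 without knockdown replicate 2) and from -0.028 to 0.17 for Dgat2 (below 0 without scramble or knockdown replicate 3), while Pcyt1a stayed below 0 at -0.19 to -0.028 (the ends without knockdown replicates 1 and 3). The log2 ratio of Chka to Chkb ran from -0.48 to 0.054 with each library left out, the last without scramble replicate 3. Of the other pathway genes, 3 were called with spike-ins and 0 to 3 with a library left out. Over all genes, 3394 were called with spike-ins (3030 higher), 1902 without a filter and 103 to 1881 with each library left out, lowest without scramble replicate 3 and highest without knockdown replicate 3. With library totals, 319 were higher and 729 lower. The cause of these differences was not tested.

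Hnf1aos1 passed the threshold without a filter (-0.74, adjusted p = 0.00564), with DESeq2 (-0.74, adjusted p = 0.00346) and with limma voom (-0.77, adjusted p = 0.0491), and its log2 fold change was -1.01 to -0.60 with each library left out, passing without knockdown replicate 3 (-1.01, edgeR adjusted p = 0.000261).

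The replicate numbers pair no samples by the labels, and same-numbered libraries did not deviate together (r = -0.0226, 0.0231 and 0.00321 over 16327 genes). With the number as a replicate block, edgeR called 878 genes in all and 0 members, with Lpin2 at -0.72 (adjusted p = 0.0512), and Hnf1aos1 passed at -0.77 (adjusted p = 0.0138). Among the other pathway genes the block called 0, with 8 at an unadjusted p under 0.05.

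With 3 mice a group, intervals of the members not called still hold differences of the size given beside each. Mogat1 is limited by depth.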
